A study of Mus musculus with 3 samples.

Results

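The miR-29 family was followed in 2 small RNA libraries of HL-1 cells, through every read that came from its 4 mouse hairpins, Mir29a, Mir29b-1, Mir29b-2 and Mir29c. A read belonged to the family if its insert of 18 to 25 nt matched one of these hairpins exactly, or with 1 to 2 added 3' bases that the hairpin does not encode. Both arms were kept. The 4 hairpins stand among 1152 mouse hairpins searched, of which 576 held reads. HL-1 is a line of mouse heart muscle cells that goes on contracting in culture. Cells were harvested 48 h after transfection with 9 µl of a 20 µM siRNA stock, per the labels. The titles name 3 samples, with siRNAs siSrf1 and siSrf2 against Srf, which encodes the muscle transcription factor SRF, and with the unspecific siRNA siNon. The libraries titled siSrf1 and siSrf2 were analysed, with 1 library each, and the siNon library was not analysed here. The samples' siRNA entries do not match these titles: Srf si2 is entered for the siSrf1 title, siNon for the siSrf2 title and Srf si1 for the siNon title. Groups follow the titles, and neither library is a control by its title, so each comparison below sets 1 library against another and shows no effect of a knockdown.

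Hairpins of miRNAs are cut by Drosha and Dicer into a duplex of a 5p and a 3p arm, of which one usually remains in the Argonaute complex. The family is known for its 3p arms. They share their seed, the bases that choose target mRNAs, and they repress collagens, fibrillins, elastin and other genes of the extracellular matrix, so that low miR-29 goes with fibrosis of the heart after infarction. A motif at the 3' end of miR-29b has been described, in human cells, as a signal that takes it into the nucleus.

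The mature 3p sequences are shown first because their few differences decide which member a read was counted for (RefSeq, build GRCm38.p6, seed bases 2 to 8 in capitals).
miR-29a-3p: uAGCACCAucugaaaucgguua
miR-29b-3p: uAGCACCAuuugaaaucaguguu
miR-29c-3p: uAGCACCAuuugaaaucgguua
The seed is the same in all 3 members. Of 1679 mature mouse miRNA names in RefSeq, these 3 alone held AGCACCA at bases 2 to 8 (0.179%). Counted from the 5' end, miR-29c-3p differs from miR-29a-3p by 1 change, C10U, over 22 bases. miR-29b-3p differs from miR-29a-3p by 4 changes over the same 22 bases, C10U, G18A, U21G and A22U, and has a further base at its 3' end.

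The hairpins are shown with both annotated arms in capitals, because reads of the less used 5p arm are what tells the Mir29b hairpins apart (RefSeq, GRCm38.p6).
Mir29a: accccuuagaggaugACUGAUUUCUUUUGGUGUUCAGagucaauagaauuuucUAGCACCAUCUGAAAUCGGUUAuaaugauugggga
Mir29b-1: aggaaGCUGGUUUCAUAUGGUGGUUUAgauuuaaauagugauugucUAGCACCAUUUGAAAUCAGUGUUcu
Mir29b-2: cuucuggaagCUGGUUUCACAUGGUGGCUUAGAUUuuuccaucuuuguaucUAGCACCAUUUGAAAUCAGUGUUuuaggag
Mir29c: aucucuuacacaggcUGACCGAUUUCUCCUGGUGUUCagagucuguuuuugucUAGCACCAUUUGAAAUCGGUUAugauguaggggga
These sequences were placed on NCBIM37 by exact match. Mir29a lies at chr6:31012660-31012747 and Mir29b-1 at chr6:31013023-31013093, both on the minus strand with 275 bases between them. No other gene of GENCODE vM1 overlaps either. Mir29b-2 lies at chr1:196863234-196863314 and Mir29c at chr1:196863741-196863828, both on the plus strand with 426 bases between them. These 2 hairpins fall within an exon (chr1:196860017-196864102) of the long noncoding RNA gene A330023F24Rik, on the same strand. Untailed family inserts with at least 10 reads were searched in the whole NCBIM37 genome. The 13 such inserts of miR-29a-3p, the 6 of miR-29c-3p and the 5 of miR-29c-5p each had 1 place in it, while 7 of the 8 of miR-29b-3p had 2, the Mir29b hairpins.

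The library labelled siSrf1 held 14911499 reads, of which 7748874 gave an insert of 18 to 25 nt, and the library labelled siSrf2 held 14518157 reads and 7013026 such inserts. Inserts that matched a hairpin, called miRNA reads here, numbered 5288102 under the label siSrf1 and 4604373 under siSrf2. As a check of the labels, inserts of 19 to 24 nt that matched the Srf mRNA were read 32 times in the library labelled siSrf1, against 1050 times in the library labelled siSrf2, where 1048 began within 5 bases at 1 site. The count at that site disagrees with siNon, the siRNA entered for that library. In the library labelled siSrf1 the densest site was the same one, with 19 of the 32 reads, so these reads show no siRNA site of its own and do not bear out its label. The assay does not measure Srf mRNA. Heart muscle miRNAs (5 of 5 tested) made up 64.1% (siSrf1) and 53.1% (siSrf2) of miRNA reads, mostly miR-1a-3p, and fibroblast and smooth muscle miRNAs (4 of 4) 2.48% (siSrf1) and 2.41% (siSrf2). Members of these lists went apart. miR-145a-5p had 716 reads (siSrf1) and 2872 (siSrf2), a log2 ratio, siSrf1 over siSrf2, of -2.20, while miR-143-3p was at -0.34, miR-199a-3p at 0.27 and miR-214-3p at 0.49. In the heart muscle list, miR-1a-3p was at 0.28 and miR-133a-3p at -1.05, with a list median of -0.20. The endothelial miR-126a-3p had 1574 reads (siSrf1) and 1233 (siSrf2), and the blood list (2 of 3 tested) 249 (siSrf1) and 225 (siSrf2). The liver miRNA miR-122-5p had 37 reads (siSrf1) and 60 (siSrf2), the neuron list 110 (siSrf1) and 112 (siSrf2), and the epithelium list 36 (siSrf1) and 29 (siSrf2), with miR-141-3p at 0 in both.

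Of the family, 36272 reads came from the library labelled siSrf1, against 34330 from the library labelled siSrf2. That was 0.686% (0.679 to 0.693) of miRNA reads under the label siSrf1 and 0.746% (0.738 to 0.753) under siSrf2, with exact 95% Clopper-Pearson intervals. Reads carry no molecular identifiers, so every interval here covers counting error only, and with 1 library per label no difference has a replicate check. Nearly all family reads were 3p arms. miR-29a-3p, the most read member, had 28627 reads, or 5413 reads per 1000000 miRNA reads (RPM), in the library labelled siSrf1, against 27901 reads or 6060 RPM in the library labelled siSrf2. By mean share it stood at rank 19 of the 262 arms with at least 50 reads over both libraries. miR-29c-3p followed with 6689 reads (1265 RPM) in the library labelled siSrf1, against 5420 (1177 RPM) in the library labelled siSrf2, at rank 37. miR-29b-3p, whose sequence both Mir29b hairpins hold, had 852 reads (161 RPM) in the library labelled siSrf1, against 930 (202 RPM) in the library labelled siSrf2, at rank 77. The order of the 3p arms was the same in both libraries, and neighbours in it lay further apart than their intervals. Read numbers of different miRNAs also depend on how well each sequence is ligated and amplified, so these levels need not be molar amounts.

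**Figure D1:**
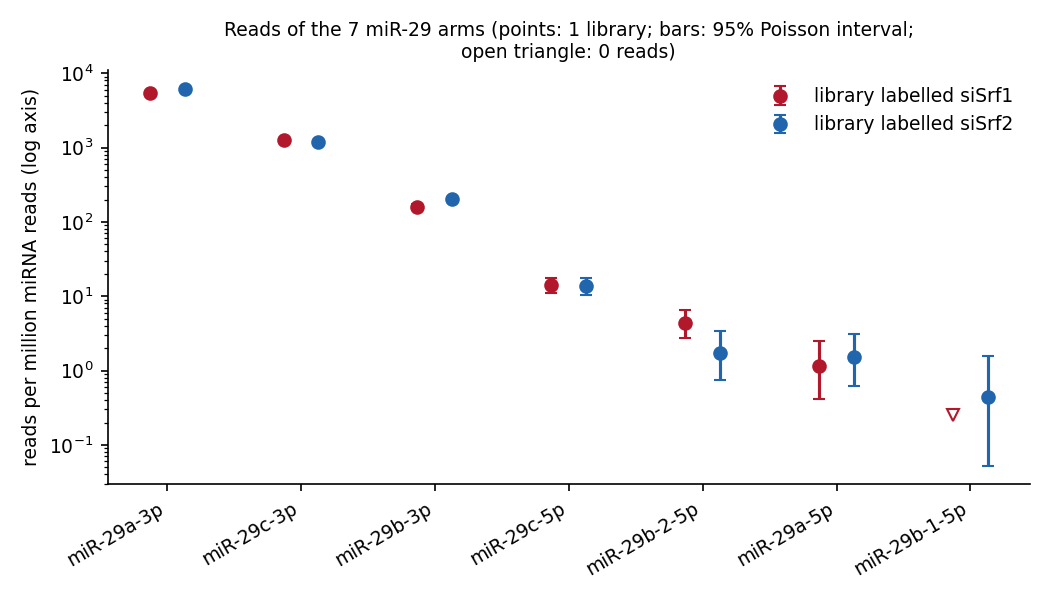
RPM (log axis) of the 7 arms of the family in the libraries labelled siSrf1 and siSrf2, with 95% Poisson intervals. The 3 3p arms lie above all 4 5p arms, and miR-29c-5p is the most read 5p arm with 14.2 RPM (siSrf1) and 13.7 RPM (siSrf2).

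The family differed little between the libraries. Its log2 ratio, siSrf1 over siSrf2 with reads scaled to the miRNA total and a pseudocount of 0.5, was -0.12 (exact 95% interval -0.14 to -0.10), so it was 1.09-fold higher in the library labelled siSrf2. The ratio of miR-29a-3p was -0.16 (-0.19 to -0.14) and that of miR-29b-3p was -0.33 (-0.46 to -0.19). miR-29c-3p lay on the other side of 0, at 0.10 (0.05 to 0.16), and its passenger arm miR-29c-5p at 0.05 (-0.45 to 0.56). An arm was called if the libraries differed at least 2-fold with the whole interval on 1 side of 0. None of the 4 tested miR-29 arms was called, in either direction. Over all 262 arms, 0 (0%) were called higher in the library labelled siSrf1, against 68 (26%) higher in the library labelled siSrf2. With TMM factors 3 were called higher in the library labelled siSrf1 and 39 higher in the library labelled siSrf2.

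The family's ratio changes sign with the scaling. Over all arms the median log2 ratio was -0.45, and TMM factors moved every ratio up by 0.50. Relative to that median the family stood higher in the library labelled siSrf1. With TMM factors its log2 ratio was 0.38, that of miR-29a-3p 0.33, miR-29b-3p 0.17, miR-29c-3p 0.60 and miR-29c-5p 0.55, still under 2-fold, beside 0.04 for the median of all arms. All 4 tested arms lay above the all-arm median, a position that scaling cannot change. The GC content of the most frequent insert moves with the ratio over all arms, with a median log2 ratio of -0.26 for the 156 arms of at most 50% GC and -0.80 for the others. The tested miR-29 arms had 40.9% (miR-29a-3p), 34.8% (miR-29b-3p), 36.4% (miR-29c-3p) and 47.6% GC (miR-29c-5p), under the all-arm median of 47.8%. Against the median of -0.26 for arms of at most 50% GC, miR-29b-3p lay below, at -0.33, and miR-29a-3p, miR-29c-3p and miR-29c-5p above. The part of GC in their ratios was not tested.

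**Figure D2:**
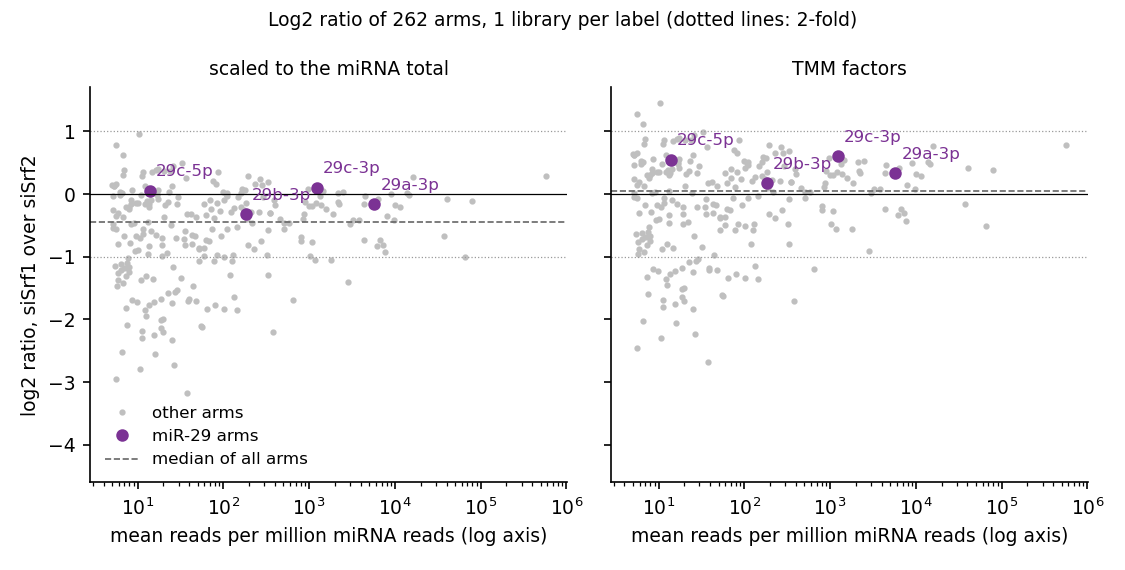
Log2 ratio, siSrf1 over siSrf2, of 262 arms against their mean RPM (log axis), scaled to the miRNA total on the left and by TMM factors on the right. The 4 tested miR-29 arms lie between the 2-fold lines and above the dashed all-arm median, which is -0.45 on the left and 0.04 on the right.

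The mix of members differed between the libraries by more than counting error, as it did in nearly all other seed families, in a measure that no scaling between libraries can move. miR-29a-3p made up 79.2% (78.7 to 79.6) of the family's 3p reads in the library labelled siSrf1, against 81.5% (81.0 to 81.9) in the library labelled siSrf2. For miR-29c-3p the shares were 18.5% (18.1 to 18.9) in the library labelled siSrf1, against 15.8% (15.4 to 16.2) in the library labelled siSrf2. miR-29b-3p gave 2.36% (2.20 to 2.52) in the library labelled siSrf1, against 2.71% (2.55 to 2.89) in the library labelled siSrf2. The 2 intervals did not overlap for any of the 3 members. The same was found for 39 of 42 arms (92.9%) in 15 other groups of arms with a shared seed and at least 500 reads of each arm in each library, so it is not read as a result about miR-29. Its sizes, 2.67 points or less, compare with a median of 2.94 points over those arms. There were 4.28 reads of miR-29a-3p per read of miR-29c-3p in the library labelled siSrf1, against 5.15 in the library labelled siSrf2.

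Since miR-29a-3p and miR-29c-3p differ by 1 base, a sequencing error can turn one into the other. The change C10T of the main miR-29a-3p insert gives miR-29c-3p, and inserts of this sequence were read 5750 times in the library labelled siSrf1, against 4687 times in the library labelled siSrf2. The same C-to-T change at the 4 other cytosines of miR-29a-3p was read 7 to 85 times in the library labelled siSrf1, against 12 to 74 times in the library labelled siSrf2. At the mean rate of those positions, 38.4 reads of miR-29c-3p (siSrf1) and 35.3 (siSrf2) would be misread miR-29a-3p, which is 0.574% (siSrf1) and 0.652% (siSrf2) of its reads. The highest counts of those positions, 85 (siSrf1) and 74 (siSrf2), come to 1.48% (siSrf1) and 1.58% (siSrf2) of the inserts with the main miR-29c-3p sequence. That base is smaller than all reads of miR-29c-3p, so these values do not compare directly with those at the mean rate. The rate of C-to-T misreads at base 10 itself cannot be measured. The change C10A was read 381 times (siSrf1) and 406 times (siSrf2), the highest C-to-A count of the 5 cytosines in both libraries. The same reads are also the change T10A of miR-29c-3p, so this count does not compare directly with the other cytosines. Single changes of the main insert outside base 10 together came to 15.9% of unchanged and changed reads in the library labelled siSrf1, against 13.0% in the library labelled siSrf2 for miR-29a-3p, and to 16.5% (siSrf1) and 14.3% (siSrf2) for miR-29c-3p. Among these the change of the last base, A22T, was the most frequent in both members.

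**Figure D3:**
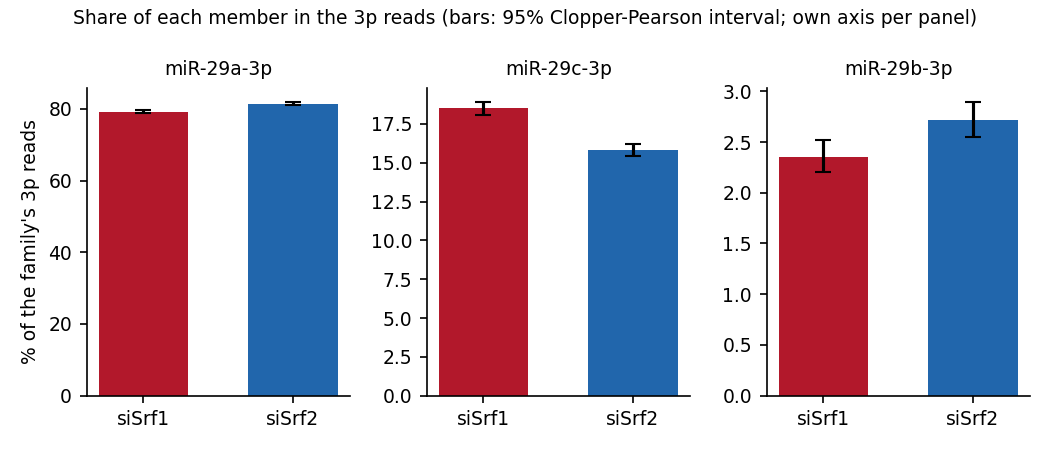
Share of each member in the 3p reads of the family, in percent with 95% Clopper-Pearson intervals, in the libraries labelled siSrf1 (left bar) and siSrf2 (right bar). miR-29c-3p is higher in the library labelled siSrf1 (18.5%, against 15.8%), and miR-29a-3p and miR-29b-3p are higher in the library labelled siSrf2.

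The 5p arms were rare. They gave 104 reads in the library labelled siSrf1, against 80 in the library labelled siSrf2, or 0.287% (siSrf1, 0.234 to 0.347) and 0.233% (siSrf2, 0.185 to 0.290) of family reads. Arm use differed among the members. For Mir29a the 5p share was 0.0210% (0.0077 to 0.0456) in the library labelled siSrf1, against 0.0251% (0.0101 to 0.0517) in the library labelled siSrf2, from 6 reads (siSrf1) and 7 (siSrf2). For Mir29c it was 1.11% (0.873 to 1.39) in the library labelled siSrf1, against 1.15% (0.884 to 1.47) in the library labelled siSrf2, with no overlap between the members' intervals in either library. The Mir29b hairpins, counted as a pair, gave 2.63% (1.67 to 3.92) in the library labelled siSrf1, against 1.06% (0.511 to 1.95) in the library labelled siSrf2, with overlapping intervals.

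The 3p arm of miR-29b does not tell its hairpins apart, but the 5p arms do. miR-29b-2-5p had 23 reads (Poisson interval 14.6 to 34.5) in the library labelled siSrf1, against 8 (3.45 to 15.8) in the library labelled siSrf2. Its log2 ratio of 1.27 (0.11 to 2.69) rests on 31 reads, under the minimum of 50. miR-29b-1-5p had 0 reads in the library labelled siSrf1, which allows up to 3 by the limit set here for a count of 0 (upper end of the Poisson interval 3.69), and 2 in the library labelled siSrf2. On the 3p side, untailed inserts that fit Mir29b-2 alone had 20 reads in the library labelled siSrf1, against 18 in the library labelled siSrf2, and those that fit Mir29b-1 alone had 0 (siSrf1) and 1 (siSrf2). The Mir29b-2 inserts end in 1 more T, which could also be a T added to the mature end from Mir29b-1. By locus, the chromosome 1 hairpins gave 98 of the 104 5p reads in the library labelled siSrf1, against 71 of 80 in the library labelled siSrf2. The chromosome 6 locus holds Mir29a, whose 3p arm led the family in both libraries.

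**Figure D4:**
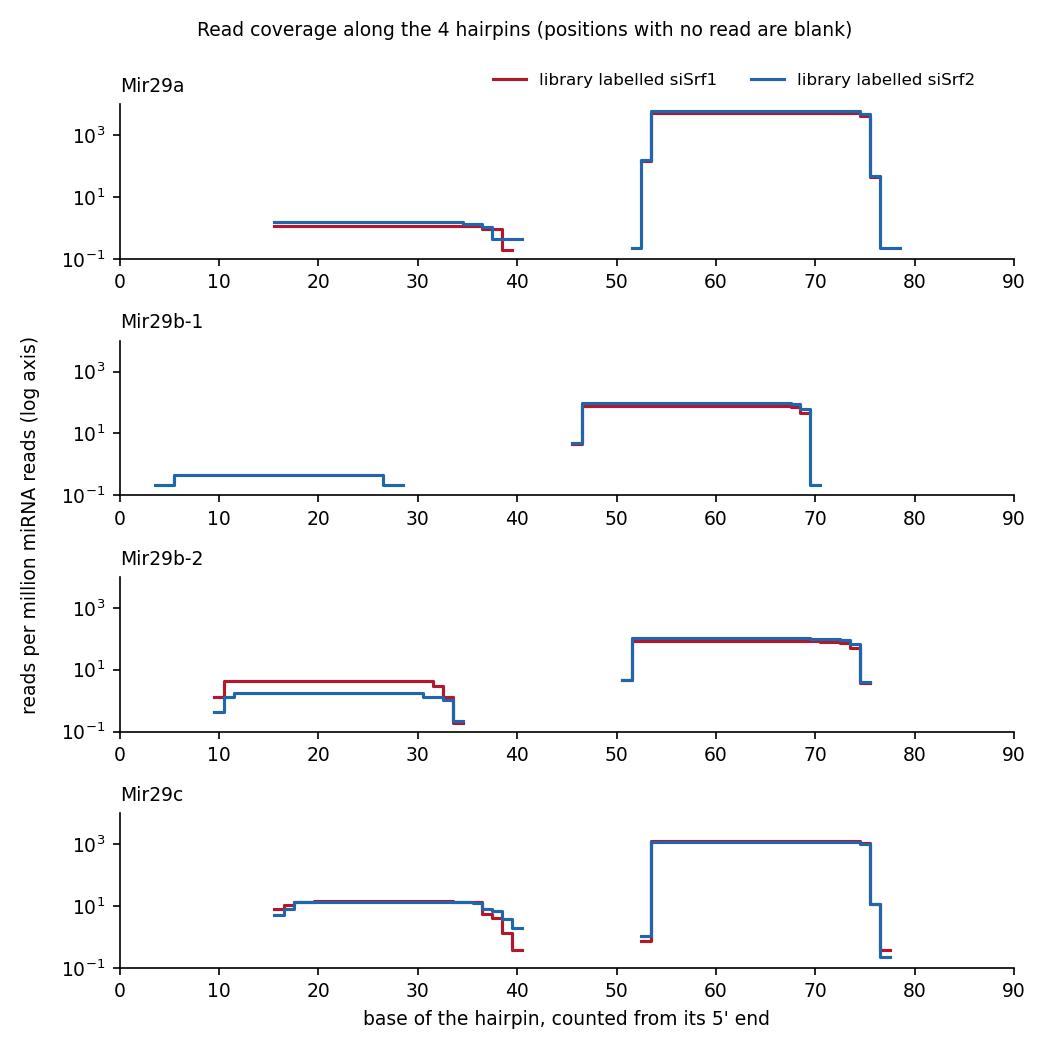
RPM (log axis) over each base of the 4 hairpins, counted from the 5' end of the hairpin, in the libraries labelled siSrf1 and siSrf2. Coverage falls into 2 blocks, the 5p arm on the left and the 3p arm on the right, with the 3p block the higher in every hairpin. Reads that match both Mir29b hairpins were divided equally between them, so the 3p blocks of Mir29b-1 and Mir29b-2 are nearly the same by construction.

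A shift of the 5' end changes the seed, so the 5' ends of the 3p arms were compared. The most frequent 5' end held 96.9% of miR-29a-3p reads in the library labelled siSrf1, against 97.0% in the library labelled siSrf2. It held 99.4% (siSrf1) and 99.2% (siSrf2) of miR-29c-3p reads, and 94.1% (siSrf1) and 95.1% (siSrf2) of miR-29b-3p reads. The main other form of miR-29a-3p and miR-29b-3p began 1 base upstream, and its most frequent inserts are shown with the moved seed in capitals (read sequences, in DNA letters).
miR-29a-3p, 1 base upstream: cTAGCACCatctgaaatcggtt
miR-29b-3p, 1 base upstream: cTAGCACCatttgaaatcagtg
No mature mouse miRNA in RefSeq held this moved seed, UAGCACC, at bases 2 to 8 (0 of 1679). This form made up 2.77% (2.58 to 2.96) of miR-29a-3p reads in the library labelled siSrf1, against 2.61% (2.42 to 2.80) in the library labelled siSrf2, from 792 reads (siSrf1) and 727 (siSrf2). For miR-29b-3p it was 5.75% (4.28 to 7.53) in the library labelled siSrf1, against 4.73% (3.46 to 6.30) in the library labelled siSrf2. miR-29c-3p had 4 such reads (siSrf1) and 5 (siSrf2), or 0.0598% (siSrf1, 0.0163 to 0.153) and 0.0923% (siSrf2, 0.0300 to 0.215). The 3 members thus stood in the same order in both libraries, with intervals that did not overlap between any of them. Over 87 arms with at least 500 reads in each library, the median share of this form was 0.0919% in the library labelled siSrf1, against 0.0853% in the library labelled siSrf2. miR-29a-3p ranked 12 and miR-29b-3p 9 of the 87. Intervals of the libraries were apart for 2 of the 87 arms (2.3%) and for none of the members. All 4 hairpins have the bases UC directly before the 3p arm.

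Reads with the upstream start often also ended early. Among untailed miR-29a-3p reads with that start, the share that ended 1 base short of the main 3' end, which keeps 22 nt, was 57.9% (54.2 to 61.6) in the library labelled siSrf1, against 52.4% (48.5 to 56.3) in the library labelled siSrf2. Among those with the main start it was 12.5% (12.1 to 12.9) in the library labelled siSrf1, against 10.6% (10.3 to 11.0) in the library labelled siSrf2. For miR-29b-3p, 0 of 39 (siSrf1) and 0 of 36 (siSrf2) such upstream reads reached the main 3' end, and most ended 1 to 3 bases short of it.

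The 5p arms had few reads, and some began at several bases. miR-29c-5p began at the annotated base in 42 reads, 1 base later in 16 and 2 bases later in 16 in the library labelled siSrf1, against 24, 13 and 26 reads in the library labelled siSrf2. One further read in the library labelled siSrf1 began 4 bases later. miR-29b-2-5p began at the annotated base in 16 reads and 1 base earlier in 7 in the library labelled siSrf1, and in the library labelled siSrf2 at the annotated base in 4, 1 base earlier in 2 and 1 base later in 2. Of the 2 reads of miR-29b-1-5p, 1 began at the annotated base. All 6 (siSrf1) and 7 (siSrf2) reads of miR-29a-5p did so.

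The 3' ends varied more than the 5' ends, and the members differed. miR-29c-3p was the most uniform, with the main 3' end and no tail in 86.3% (85.4 to 87.1) of reads in the library labelled siSrf1, against 86.7% (85.8 to 87.6) in the library labelled siSrf2, rank 2 of the 87 arms. miR-29a-3p followed at rank 6, with 77.9% (77.5 to 78.4) in the library labelled siSrf1, against 81.1% (80.7 to 81.6) in the library labelled siSrf2. miR-29b-3p had 57.4% (54.0 to 60.7) in the library labelled siSrf1, against 60.8% (57.5 to 63.9) in the library labelled siSrf2, near the all-arm medians of 55.5% (siSrf1) and 58.1% (siSrf2). The commonest other end was 1 base short. It held 12.7% (12.4 to 13.1) of miR-29a-3p reads in the library labelled siSrf1, against 11.0% (10.6 to 11.4) in the library labelled siSrf2. In miR-29b-3p it held 23.6% (siSrf1) and 22.2% (siSrf2), and in miR-29c-3p 5.02% (siSrf1) and 5.28% (siSrf2). Between the libraries, intervals of the main 3' end were apart for miR-29a-3p alone of the 3 members, beside 31 of 87 arms (35.6%), and those of the end 1 base short likewise, beside 28 of 87 (32.2%).

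The 6 last bases of miR-29b-3p, AGUGUU, form the motif described as a nuclear signal, and they are kept only if the 3' end is complete. The 3' end was complete or longer, tails included, in 61.0% (57.7 to 64.3) of miR-29b-3p reads in the library labelled siSrf1, against 64.2% (61.0 to 67.3) in the library labelled siSrf2. In miR-29a-3p, which lacks the motif, that share was 80.7% (siSrf1) and 83.6% (siSrf2), and in miR-29c-3p 88.2% (siSrf1) and 88.7% (siSrf2). Intervals of the libraries were apart for miR-29a-3p and for 40 of 87 arms (46%). Of the 1679 mature names, 2 end in these letters (0.119%), miR-29b-3p and miR-92b-5p, and 12 (0.715%) hold them anywhere.

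Untemplated 3' bases, which terminal transferases add to mature miRNAs, were counted less often in the family than in most arms. The tailed forms of miR-29a-3p and miR-29b-3p with the most reads are shown with the added base in capitals (read sequences).
miR-29a-3p, T on the end 1 base short: tagcaccatctgaaatcggttT
miR-29a-3p, A on the main end: tagcaccatctgaaatcggttaA
miR-29b-3p, A on the end 1 base short: tagcaccatttgaaatcagtgtA
Tails of 1 to 2 bases were found on 7.25% (6.95 to 7.55) of miR-29a-3p reads in the library labelled siSrf1, against 5.89% (5.62 to 6.17) in the library labelled siSrf2. For miR-29c-3p it was 7.22% (6.61 to 7.87) in the library labelled siSrf1, against 6.73% (6.08 to 7.43) in the library labelled siSrf2. For miR-29b-3p it was 9.39% (7.52 to 11.5) in the library labelled siSrf1, against 6.78% (5.24 to 8.58) in the library labelled siSrf2. The medians over 87 arms were 15.5% (siSrf1) and 14.53% (siSrf2). In this order of shares, high to low, miR-29a-3p ranked 81, miR-29c-3p 78 and miR-29b-3p 74. Only for miR-29a-3p of these 3 were the libraries' intervals apart, beside 19 of 87 arms (21.8%).

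Which added bases can be seen depends on the hairpin, so the shares of A and T do not compare added bases between members. The total tail shares above, and their ranks among the 87 arms, have the same limit. On an end 1 base short, an added A equals the last base of miR-29a-3p and miR-29c-3p, and an added T that of miR-29b-3p, and both were counted as encoded. The hairpins Mir29a, Mir29b-2 and Mir29c also continue with T after the mature end, so a T added there was counted as encoded too. A single A was on 1.98% (siSrf1) and 1.65% (siSrf2) of miR-29a-3p reads, and on 1.05% (siSrf1) and 1.02% (siSrf2) of miR-29c-3p reads. On miR-29b-3p it was at 6.22% (siSrf1) and 4.14% (siSrf2), with an all-arm median of 6.62% in both libraries. A single T was on 3.61% (siSrf1) and 2.92% (siSrf2) of miR-29a-3p reads and on 4.92% (siSrf1) and 4.69% (siSrf2) of miR-29c-3p reads. On miR-29b-3p it was found on 1 read (siSrf1) and 2 reads (siSrf2), and the all-arm medians were 3.26% (siSrf1) and 3.30% (siSrf2). In miR-29a-3p and miR-29c-3p, a T on the end 1 base short cannot be told apart from the base change A22T. Intervals of the libraries were apart for the A share of miR-29a-3p (14 of 87 arms, 16.1%) and its T share (9 of 87, 10.3%), and for neither in the other members. A single C was on 86 reads of miR-29a-3p in the library labelled siSrf1, against 23 in the library labelled siSrf2, or 0.300% (siSrf1, 0.240 to 0.371) and 0.0824% (siSrf2, 0.0523 to 0.124), apart as in 6 of 87 arms (6.9%). Most of them, 76 reads (siSrf1) and 17 (siSrf2), read as the change A22C, and the intervals of this change were apart for miR-29a-3p. In the 9 other arms outside the family whose main insert has 22 nt and ends in A, it was the higher in the library labelled siSrf1 in 8, with intervals apart in 2. Whether those are added bases or errors of the read at that base was not tested.

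**Figure D5:**
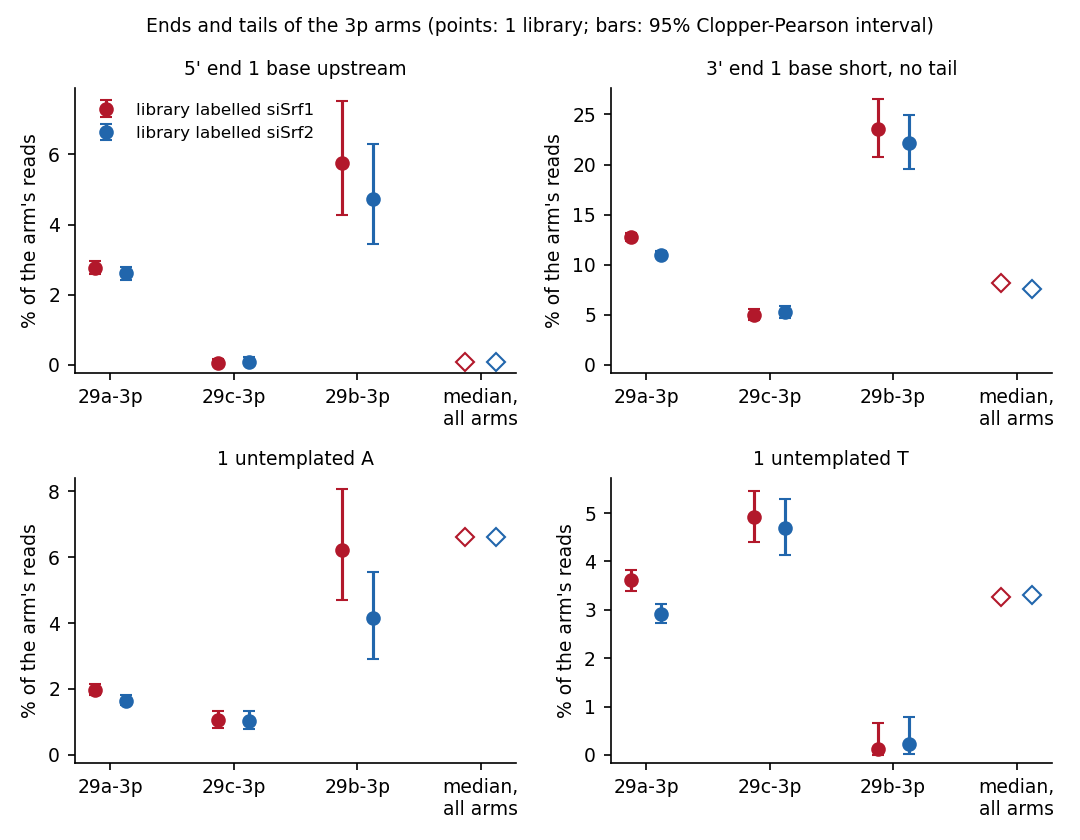
Shares of reads with a 5' end 1 base upstream, a 3' end 1 base short, 1 untemplated A and 1 untemplated T in the 3p arms, in percent with 95% Clopper-Pearson intervals, and the median over 87 arms (open diamonds). miR-29c-3p sits near 0 for the upstream start in both libraries. For miR-29b-3p an added T was mostly counted as encoded, so its T share is near 0 by construction.

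Other miRNAs with published roles in heart fibrosis or matrix control were set beside the family. Of the 12 listed, all 12 were tested. None was called higher in the library labelled siSrf1 (0% of all arms), and 1 was called higher in the library labelled siSrf2 (26% of all arms). The one called was miR-133a-3p, which restrains the matrix factor CTGF, with 6168 reads in the library labelled siSrf1, against 11119 in the library labelled siSrf2, which is a log2 ratio of -1.05 (-1.095 to -1.005). With TMM factors it was -0.55, under 2-fold. miR-21a-5p, which rises in fibroblasts of the failing heart, had 33116 reads in the library labelled siSrf1, against 30430 in the library labelled siSrf2, at a log2 ratio of -0.08 (-0.10 to -0.06). At 0.27 (0.26 to 0.29), miR-199a-3p, counted with its identical copy miR-199b-3p, was higher in the library labelled siSrf1 (92947 reads, against 66958). The next lay just under 2-fold, miR-15b-5p at -0.98 (299 reads under siSrf1, against 513 under siSrf2) and miR-30c-5p at -0.88 (844 reads, against 1354). miR-214-3p had 202 reads in the library labelled siSrf1, against 125 in the library labelled siSrf2, at 0.49 (0.16 to 0.83). The others lay between -0.20 and 0.36, with miR-208a-3p at -0.20, miR-26a-5p at -0.17, miR-24-3p at -0.16, miR-22-3p at -0.02, miR-101a-3p at 0.02 and miR-132-3p at 0.36. Of these, the intervals of miR-26a-5p and miR-24-3p alone lay on 1 side of 0. The list's median was -0.12, beside -0.45 over all arms, and 0.38 with TMM factors, beside 0.04. Of the 16 other arms within 2-fold of the abundance of miR-29a-3p, the nearest in log2 ratio were miR-24-3p (-0.16), miR-103-3p (-0.17) and let-7g-5p (-0.21), a likeness over 2 libraries only.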

How the data were processed

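Per the labels, the Illumina small RNA protocol was used and sequencing was on a Genome Analyzer. The authors deposited, for each library, counts of reads per distinct 36 nt sequence, without normalization, per the file headers. The aligner and genome build were not given in the sources used here. Groups follow the sample titles, and 2 libraries were analysed, siSrf1 and siSrf2.

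The adapter was found in the reads as the commonest sequence after known mature miRNAs. Its first 8 nt were searched without mismatch (at the read end, 4 nt or more), and inserts of 15 nt or longer were kept. Inserts of 18 to 25 nt were matched to 1152 hairpins, 1005 from RefSeq (GRCm38.p6) and 147 more from GENCODE vM1 on NCBIM37, with 10 nt of flank, exactly or with 1 to 2 untemplated 3' bases after at least 16 encoded ones. Inserts that matched several arms were shared equally, which touched 2 (siSrf1) and 3 (siSrf2) family reads. Reads were scaled to the miRNA total. Other scalings were median-of-ratios factors (DESeq2 1.42.0, R 4.3.3) and TMM (edgeR 4.0.16), beside the alternatives listed in the closing section. Other steps used Python 3.11.15, numpy 2.4.6, scipy 1.17.1, pandas 2.3.3, pysam 0.24.0 and matplotlib 3.10.9.

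With 1 library per label no test was run. Intervals are exact 95% intervals: Poisson for reads, Clopper-Pearson for shares, and binomial conditional on both counts for ratios. Arms with at least 50 reads over both libraries were tested by size, and ends and tails were compared in arms with at least 500 reads in each. Named are all family arms, the fibrosis list, and the 3 arms nearest in ratio to miR-29a-3p within 2-fold of its abundance. Members and lists were chosen with earlier results of these data known. Counts of 262 arms were simulated with Poisson noise alone. On them the size rule called 98.3% of arms changed 3-fold, 4.4% of those changed 1.5-fold and 0.139% of unchanged ones. The simulation holds no other variation between libraries, so these rates do not give the rate of false calls here. All 2730 simulated family reads were given the right arm and tail. They held no read errors and no tail whose first base continues the hairpin, so this does not measure errors of tail calls here.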

Additional observations from a re-analysis of the deposited data

Results flagged for a closer look

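Reads that begin with a main 3p sequence of the family but hold no adapter match were left out of the values in the report. They are given here because they are signal outside the main measurement, and allowing 1 mismatch in the adapter brings most of them in, with the effect given under the processing. There were 5698 of miR-29a-3p in the library labelled siSrf1, against 5961 in the library labelled siSrf2, which is 20.0% (siSrf1) and 20.6% (siSrf2) of reads that begin with that sequence. For miR-29c-3p there were 1899 in the library labelled siSrf1, against 1531 in the library labelled siSrf2 (24.5% in siSrf1 and 24.3% in siSrf2), and for miR-29b-3p 140 in siSrf1 and 117 in siSrf2 (16.5% in siSrf1 and 12.8% in siSrf2). With 1 mismatch allowed in the adapter, 1078 (siSrf1) and 1152 (siSrf2) reads of miR-29a-3p, 407 (siSrf1) and 289 (siSrf2) of miR-29c-3p and 22 (siSrf1) and 20 (siSrf2) of miR-29b-3p were still without it.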

How the results depend on the processing

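No paired analysis was possible because each label has 1 library, and no replicate could be left out. The family's log2 ratio of -0.12 was 0.38 by TMM, 0.33 with median-of-ratios factors, 0.25 scaled to miRNA reads without miR-1a-3p, -0.0138 scaled to all inserts of 15 nt or longer, and -0.16 with exact matches only. Its share of miRNA reads was 0.676% in the library labelled siSrf1 with 12 nt of adapter, and 0.775% in the library labelled siSrf2 with exact matches only. Up to 1 mismatch in the adapter, chosen after seeing the data, gave shares of 0.735% (siSrf1) and 0.790% (siSrf2), since it added 20.0% (siSrf1) and 20.1% (siSrf2) to family reads, against 11.9% (siSrf1) and 13.4% (siSrf2) to all miRNA reads. It also gave miR-29a-3p 78.5% (siSrf1) and 81.0% (siSrf2) of 3p reads, and miR-29c-3p 19.2% (siSrf1) and 16.5% (siSrf2). Without sequences seen once, the 5p share was 0.181% in the library labelled siSrf2. With a minimum of 10 reads, 1 of 6 tested miR-29 arms was past the size rule, miR-29b-2-5p, higher in the library labelled siSrf1. Of the 391 arms tested at that setting, 1 was called in this direction and 105 in the other. Over 14 alternatives, 0 to 3 arms were called higher in the library labelled siSrf1, against 18 to 105 in the library labelled siSrf2. The number of arms tested changes with the setting. The lowest count in the library labelled siSrf2 was 18 of 123 arms, with a minimum of 500 reads. The highest was 105 of 391, with a minimum of 10, beside 68 of 262 in the main run. Inserts of 20 to 24 nt or 16 to 28 nt, a pseudocount of 5, the correction for misread miR-29a-3p, and leaving out inserts of several families left these family results within their counting intervals. In every setting run that gives these shares, miR-29c-3p held more of the 3p reads in the library labelled siSrf1, and miR-29a-3p and miR-29b-3p more in the library labelled siSrf2. The 5p arms, with 104 reads (siSrf1) and 80 (siSrf2), are limited by depth.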
